A study of Mus musculus with 6 samples.

Results

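The expression of 8 myokine genes was compared between the gastrocnemius (GAS) muscles of Kvβ2 knockout (KO) and wildtype (WT) mice. The genes were found by their symbols, *Fndc5*, *Metrnl*, *Il15*, *Apln*, *Ostn*, *Bdnf*, *Igf1* and *Fgf21*, and each matched 1 of the 37979 genes in the deposited table. Myokines are proteins that muscle releases, and that act on the fiber that made them, on neighboring cells or on distant organs. Some are cut from larger precursors before or after release, and nearly all act through a receptor on the target cell. RNA was sequenced from 3 KO and 3 WT male mice, 20 weeks of age, with 1 library per mouse. The KO mice were homozygous for a null allele of the gene for Kvβ2 (Kvβ2-/-), and they and their WT controls came from crosses of hemizygous null (Kvβ2+/-) mice. The allele was present in the whole animal, and the mice of both genotypes had no treatment. The libraries of each genotype carried the replicate numbers 1, 7 and 8.

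Values are FPKM (fragments per kilobase of transcript, relative to the mapped fragments of the library) as the authors computed them, so levels of different genes can be set side by side. The values of single libraries are given in the order of replicates 1, 7 and 8. The depth, estimated from the steps between low FPKM values, was 15000000 to 19480000 fragments in the KO libraries and 20380000 to 21160000 in the WT libraries, so every KO library was shallower than every WT library. The targeted gene *Kcnab2* ranged from 0.10 to 0.233 FPKM in the WT libraries. In the KO libraries it reached 0.0151 FPKM in replicate 7 and was listed at 0 in the other two. All 9 skeletal muscle markers on the list used (*Acta1*, *Ckm*, *Des*, *Mb*, *Pygm*, *Myh1*, *Myh2*, *Myh7* and *Ryr1*) passed the filter on low values. Their summed level was 13799 to 20663 FPKM in the WT and 25986 to 29054 FPKM in the KO libraries, without overlap, and 5 of the 9 had separate libraries, all higher in KO muscle, beside 18.3% of all tested genes. The 3 satellite cell markers summed to 2.26 to 4.48 FPKM in the WT and 4.86 to 5.27 FPKM in the KO libraries. *Cdh15* made up most of that sum, and the libraries of *Pax7* overlapped (0.340 to 0.529 against 0.362 to 0.446 FPKM). The sums of the 3 erythrocyte markers were 64.9 to 98.2 and 113 to 228 FPKM, also without overlap. The globin genes *Hba-a1* and *Hba-a2* made up most of these sums, and the libraries of *Alas2* overlapped (3.15 to 3.86 against 3.16 to 4.50 FPKM). The sums of the fibroblast (411 to 571 against 393 to 492 FPKM) and tendon markers (42.3 to 96.3 against 69.8 to 185 FPKM) overlapped, and 0 genes of these lists were called (limma). All 5 tendon markers had log2 fold changes above 0 (median 0.76), as had 4 of the 6 fibroblast markers (median 0.15), beside 51% of all tested genes. *Dcn* alone made up 318 to 485 FPKM of the fibroblast sums. After the correction for GC content described below, the median log2 fold change of the muscle markers fell from 0.75 to 0.40. That of the erythrocyte markers fell from 1.02 to 0.55 and that of the tendon markers from 0.76 to 0.62, while that of the fibroblast markers was 0.18. The log2 fold change of *Cdh15* fell from 0.71 to 0.10. The part of these cells in the differences of the myokine genes was not tested. In whole muscle, fewer cells of a type and less RNA per cell cannot be told apart.

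Shown first are the regions before the start sites of the 3 members with the largest log2 differences between the genotypes. These members were chosen after their values were seen. Across the table, the differences between genotypes moved with the base composition of the transcripts, as given below. The base composition of the regions before the start sites was not set against these differences. Of the 8 members, 6 had a promoter in the RefSeq table used (GRCm38.p6), and *Il15* and *Ostn* had none. Each run is the 250 bases before the RefSeq start, read 5′ to 3′ on the gene's strand, with GC boxes in capitals (GGGCGG on either strand, neighbors may touch). The *Fndc5* region is chr4:129136749-129136998 on the plus strand, the *Metrnl* region is chr11:121702177-121702426 on the plus strand, and the *Apln* region is chrX:48034854-48035103 on the minus strand. For *Metrnl* the RefSeq start lies downstream of the start of the gene in GENCODE, given with its values, so this window lies within the GENCODE gene.
Fndc5: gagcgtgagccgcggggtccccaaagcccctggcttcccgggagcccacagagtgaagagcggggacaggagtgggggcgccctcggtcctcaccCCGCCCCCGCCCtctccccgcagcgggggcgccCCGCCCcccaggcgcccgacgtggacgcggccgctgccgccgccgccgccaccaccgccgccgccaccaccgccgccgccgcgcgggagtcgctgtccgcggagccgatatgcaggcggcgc
Metrnl: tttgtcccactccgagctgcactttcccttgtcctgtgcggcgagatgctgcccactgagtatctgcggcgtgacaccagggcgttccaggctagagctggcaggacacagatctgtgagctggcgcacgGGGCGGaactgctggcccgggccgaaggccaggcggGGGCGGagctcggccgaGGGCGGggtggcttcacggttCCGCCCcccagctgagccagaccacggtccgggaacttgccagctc
Apln: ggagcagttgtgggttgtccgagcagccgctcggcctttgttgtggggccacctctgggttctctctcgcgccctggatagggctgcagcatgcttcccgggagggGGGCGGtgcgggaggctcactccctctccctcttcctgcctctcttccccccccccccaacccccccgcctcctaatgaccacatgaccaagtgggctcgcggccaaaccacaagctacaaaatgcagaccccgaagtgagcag
The *Fndc5* region was 80.8% G and C, above 99% of the 32851 regions of this length in the table, whose median was 52.4%. The *Metrnl* region was 68.4% and the *Apln* region 65.2% G and C. GC boxes were found at 3 places in *Fndc5*, 4 in *Metrnl* and 1 in *Apln*, and 32.7% of all regions held at least 1. The nuclear receptor half-site AGGTCA, present in 14% of all regions on either strand, and the E-box CACGTG, present in 6.02%, were not among the letters of these windows.

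The members covered a wide range of levels. *Fndc5*, which encodes the membrane precursor of irisin, and *Ostn*, which encodes the bone and muscle peptide osteocrin (musclin), were the highest, with means of 10.9 and 10.6 FPKM over the 6 libraries. Their ranges overlapped and each was the higher in 3 of 6 libraries, so their order was not set. *Igf1*, the insulin-like growth factor that drives muscle growth, followed at a mean of 4.15 FPKM, under *Ostn* in all 6 libraries. *Metrnl*, a secreted relative of meteorin, had a mean of 2.05 FPKM and lay under *Igf1* in all 6 libraries. *Il15*, a cytokine that supports lymphocytes and is made in muscle, had a mean of 1.40 FPKM, and its range overlapped that of *Metrnl*, which was the higher in 5 of 6 libraries. *Apln*, the apelin precursor (0.238 FPKM), and *Bdnf*, a neurotrophin (0.0758 FPKM), were lower, and neither range overlapped that of its neighbors in this order. *Fgf21*, a stress-induced endocrine factor, was listed at 0 in all 6 libraries.

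**Figure D1:**
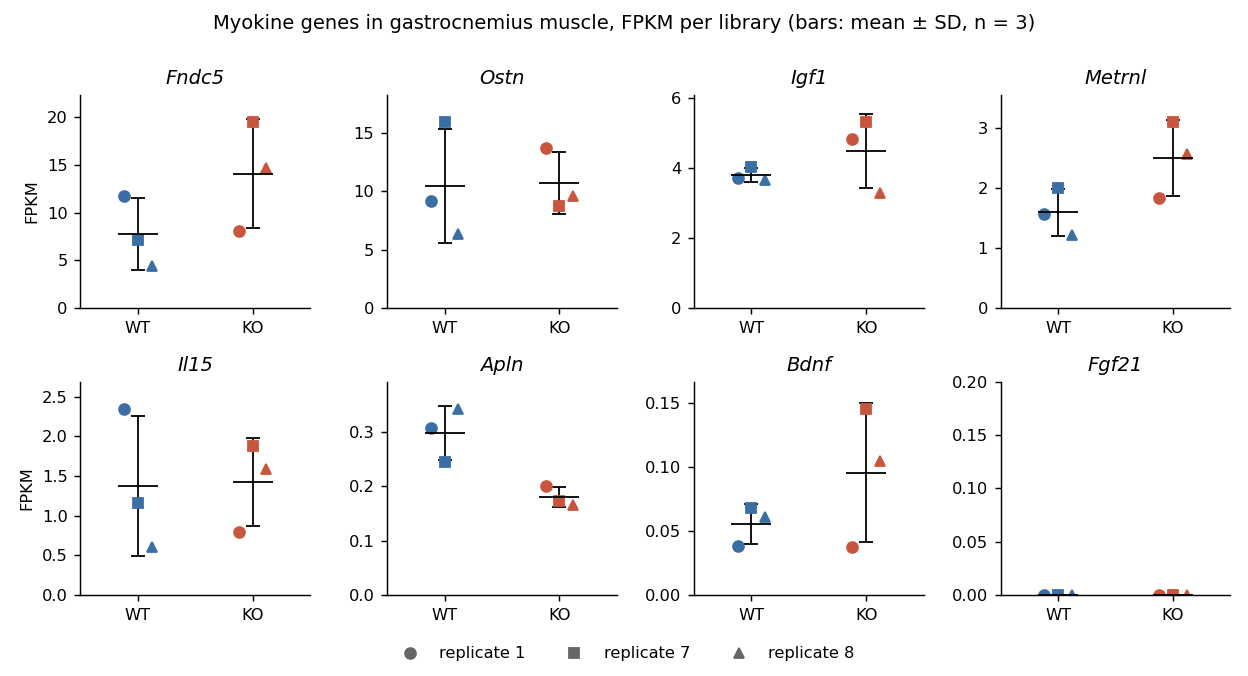
Level of each myokine gene (y axes, FPKM, each from 0) in the WT (blue) and KO (red) libraries, with symbols for the replicate number and bars for the mean ± SD of 3 libraries. The KO and WT libraries are separate for *Apln* (0.166 to 0.201 against 0.244 to 0.341 FPKM), *Fgf21* is at 0 throughout, and the other members overlap.

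The 5 members with a mean of at least 0.5 FPKM were tested with limma on log2(FPKM + 0.1) among 12334 genes, and a gene was called at a Benjamini-Hochberg adjusted p under 0.05. Of these 5 members, 0 were called, where 0.324% of all tested genes were (limma, 0.251% higher and 0.073% lower in KO muscle). At an unadjusted p under 0.05, 1 of the 5, *Metrnl*, was higher in the KO mice, beside 15.3% of all tested genes. The KO and WT libraries overlapped for all 5 tested members, whereas they were separate, in either direction, for 34.5% of all tested genes. All 5 estimates were above 0, as were 51% of all tested genes, and their median log2 fold change was 0.20, beside 0.010 for all tested genes. The median of the 5 was 0.61 without WT replicate 1 and 0.46 after the correction for GC content given below. Fold changes are on the log2(FPKM + 0.1) scale, on which the change of a weakly expressed gene is understated, and a comparison of 3 against 3 libraries cannot reach an exact permutation p under 0.1.

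*Fndc5* (ENSMUSG00000001334) lies on the plus strand of chromosome 4, 129136999 to 129144593 of GRCm38, and has 1 annotated transcript of 2763 bases. *Fndc5* values were 11.7, 7.16 and 4.37 FPKM for WT against 8.10, 19.4 and 14.7 FPKM for KO muscle. KO replicates 7 and 8 were the highest of the 6 libraries, and KO replicate 1 lay between WT replicates 7 and 1. WT muscle averaged 7.76 ± 3.72 FPKM and KO muscle 14.1 ± 5.69 FPKM (SD, n = 3 each). The log2 fold change was 0.87 (standard error 0.41, adjusted p = 0.223 by limma), a fold of 1.83 with a 95% interval of 0.938 to 3.58. *Fndc5* was thus not called, and its KO and WT libraries overlapped. Its log2 fold change ranged from 0.52 without WT replicate 8 to 1.23 without WT replicate 1. When limma's array weights were used, a setting that calls 3147 genes of the table, *Fndc5* was called and the log2 fold change was 0.94 (adjusted p = 0.0373). The lowest and highest values rested on about 241 and 985 fragments, so counting error was small beside the differences between mice. Within a genotype, the highest *Fndc5* library was 2.69 times the lowest in WT and 2.40 times in KO muscle. The SD of *Fndc5* within genotypes was larger than that of 94.1% of tested genes.

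The variation of *Fndc5* among the libraries was close to that of *Mb*, which encodes the oxygen-binding protein myoglobin of oxidative fibers. Over the 6 libraries, the 2 genes of highest Pearson correlation with *Fndc5* on the log2 scale, among 10673 candidates with a mean of at least 1 FPKM, were *Evc* (r = 0.995), a gene of the primary cilium, and *Mb* (r = 0.994). These values describe 6 libraries of 2 genotypes that differ in depth. Since they were picked as the highest among 10673 candidates over 6 libraries, values near 1 can come from the search alone. The same holds for the genes given as most like the other members. *Mb* was at 1825, 1070 and 543 FPKM for WT against 997, 3150 and 2260 FPKM for KO muscle. KO replicates 7 and 8 were again the highest and WT replicate 8 the lowest. The log2 fold change of *Mb* was 0.91 (standard error 0.53, adjusted p = 0.304 by limma). *Myh7*, the myosin heavy chain of slow fibers, was at 24.3, 22.1 and 0.0513 FPKM for WT against 15.2, 50.5 and 77.4 FPKM for KO muscle, with its lowest value in the same WT library as *Fndc5*. *Myh1*, a myosin heavy chain of fast fibers, was likewise highest in KO replicate 7 (918 FPKM) and lowest in WT replicate 8 (203 FPKM), so this low value was not limited to genes of slow or oxidative fibers. *Acta1*, *Ckm*, *Des* and *Myh2*, the myosin heavy chain of type IIa fibers, went the other way and were highest among the WT libraries in that one. The part of fiber makeup in the values of *Fndc5* was not tested.

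**Figure D2:**
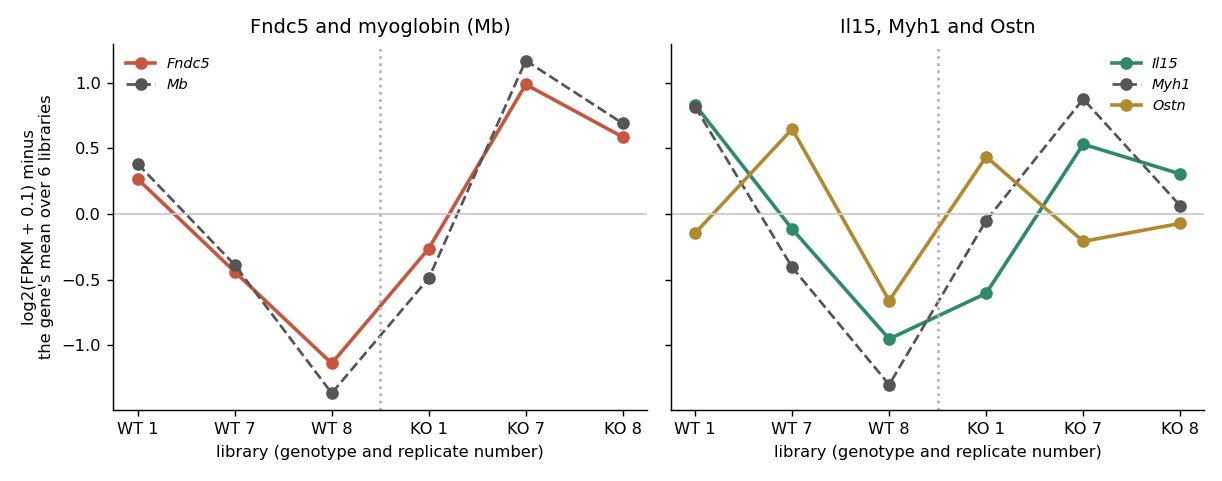
Level of each gene in each library as log2(FPKM + 0.1) minus the gene's mean over the 6 libraries (y axes), for the WT libraries left and the KO libraries right of the dotted line. *Fndc5* and *Mb* are highest in KO replicate 7 and lowest in WT replicate 8, *Il15* and *Myh1* are high in WT replicate 1 and KO replicate 7, and *Ostn* is highest in WT replicate 7. *Mb* came from the rule on likeness, and *Myh1* was chosen after its values were seen.

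*Il15* (ENSMUSG00000031712) spans chromosome 8, 82331632 to 82403222, on the minus strand. *Il15* values were 2.34, 1.16 and 0.607 FPKM for WT against 0.801, 1.88 and 1.59 FPKM for KO muscle. The WT libraries held the highest and the lowest of the 6 values, and the range within WT muscle was 3.85 times. The difference of 0.16 in log2 (standard error 0.49, adjusted p = 0.864 by limma) had a 95% interval of -0.98 to 1.29. It turned negative without KO replicate 7 (-0.071) and without WT replicate 8 (-0.28). As with *Fndc5*, WT replicate 8 and KO replicate 1 were the lowest of their genotype and KO replicate 7 was the highest KO library, but WT replicate 1 was the highest library for *Il15* and not for *Fndc5*. *Myh1*, the myosin heavy chain of fast fibers of type IIx, was at 881, 377 and 203 FPKM for WT against 483, 918 and 522 FPKM for KO muscle. The genes most like *Il15* by the rule were *Gm5532* (r = 0.995), a long noncoding RNA, and *Lrrn1* (r = 0.993).

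*Ostn* (ENSMUSG00000052276) lies on the plus strand of chromosome 16, 27307489 to 27351212. *Ostn* values were 9.11, 15.9 and 6.35 FPKM for WT against 13.7, 8.72 and 9.59 FPKM for KO muscle. WT muscle averaged 10.4 ± 4.90 FPKM and KO muscle 10.7 ± 2.66 FPKM (SD, n = 3 each), and the KO libraries lay within the WT range. The log2 fold change was 0.10 (standard error 0.33, adjusted p = 0.864 by limma), with a 95% interval of -0.66 to 0.87, and it was negative without KO replicate 1 (-0.088), without WT replicate 8 (-0.20) and with array weights (-0.46). *Ostn* did not share the pattern of *Fndc5*, since KO replicate 1 was the highest KO library and WT replicate 7 the highest of all. The genes most like it were *Dusp10* (r = 0.975), a phosphatase of stress-activated kinases, and *Ppp1r13b* (r = 0.970). The pseudogene *Gm15970*, on the other strand, lies within *Ostn* and was listed at 0.

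*Metrnl* (ENSMUSG00000039208) lies on the plus strand of chromosome 11, 121701544 to 121716306. *Metrnl* values were 1.57, 2.0 and 1.22 FPKM for WT against 1.83, 3.09 and 2.56 FPKM for KO muscle. KO replicate 1 lay under WT replicate 7, and the other KO libraries were above every WT library. WT muscle averaged 1.60 ± 0.392 FPKM and KO muscle 2.49 ± 0.632 FPKM (SD, n = 3 each). The log2 fold change was 0.61 (standard error 0.25, unadjusted p = 0.0441, adjusted p = 0.181 by limma), a fold of 1.52 with a 95% interval of 1.01 to 2.29. It stayed between 0.44 and 0.80 when each library was left out in turn. The unadjusted limma p missed 0.05 without KO replicate 7, KO replicate 8, WT replicate 1 or WT replicate 8 (0.0977 to 0.156), and it was 0.0591 with median centring, 0.0656 with quantile normalization, 0.0559 without the filter, 0.107 with array weights and 0.401 after correction for GC content. The values rested on 32.1 to 74.8 fragments if read on the longest annotated transcript, of 1401 bases, and on fewer on the shortest. Its closest genes were *Fbxo21* (r = 0.995) and *Ctsf* (r = 0.991), which encodes the lysosomal protease cathepsin F. *Metrnl* is also made by adipose tissue and macrophages. The 6 adipocyte markers (*Adipoq*, *Lep*, *Plin1*, *Cidec*, *Fabp4* and *Retn*) summed to 226 to 426 FPKM in the WT and 276 to 534 FPKM in the KO libraries, with the highest sum in KO replicate 7, which also had the most *Metrnl*. The next highest sum, 426 FPKM, was that of WT replicate 1, where *Metrnl* was under its level in every KO library. *Fabp4* alone made up 409 FPKM of that sum and 217 to 450 FPKM of the sums over all libraries, which had the same order as *Fabp4*. In WT replicate 1, *Plin1*, *Cidec* and *Retn* were under every KO library, and *Adipoq* and *Lep* were within the range of the KO libraries. All 6 adipocyte markers had log2 fold changes above 0, beside 51% of all tested genes. Their median was 1.83, and 1.76 after correction for GC content. The libraries of 3 of them, *Plin1*, *Cidec* and *Retn*, were separate, all higher in KO muscle, beside 18.3% of all tested genes. None was called (0 of 6 by limma). The 6 macrophage and leukocyte markers found in the table (*Cd68*, *Cd163*, *Csf1r*, *Itgam*, *Mrc1* and *Ptprc*) summed to 3.77 to 11.1 FPKM in the WT and 8.04 to 15.7 FPKM in the KO libraries, again highest in KO replicate 7. The 5 that were tested all had log2 fold changes above 0 (median 0.47, and 0.52 after correction for GC content), and 0 had separate libraries. None of the adipocyte markers and none of these leukocyte markers was at 0 in every library. Without KO replicate 7 the log2 fold change of *Metrnl* was 0.44, and the part of these cells was not tested.

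*Igf1* (ENSMUSG00000020053) lies on the plus strand of chromosome 10, 87858265 to 87937042. *Igf1* values were 3.73, 4.04 and 3.66 FPKM for WT against 4.84, 5.31 and 3.29 FPKM for KO muscle. The WT libraries were close to each other (3.81 ± 0.203 FPKM, SD, n = 3), while the KO libraries (4.48 ± 1.06 FPKM, SD, n = 3) held the highest and the lowest value. The log2 fold change was 0.20 (standard error 0.19, adjusted p = 0.521 by limma), with a 95% interval of -0.24 to 0.64. It was 0.065 without KO replicate 7 and 0.40 without KO replicate 8. The genes most like *Igf1* were the antisense RNA *A330041J22Rik* (r = 0.984) and *Arhgef25* (r = 0.982). The gene has 8 annotated transcripts, and the antisense gene *Gm16176* (mean 0.36 FPKM) overlaps it. The library kit kept strand, but whether strand was used in counting is not given in the sources used here.

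The differences of the tested members moved with base composition. Across the table, genes whose transcripts were under 44% G and C had a median log2 fold change of -0.32 (2002 genes), and genes of 56% or more had a median of 0.53 (2067 genes). *Ostn* (40.3% G and C), *Igf1* (43.6%) and *Il15* (46.6%) lay toward the low end, and *Fndc5* (53.5%) and *Metrnl* (56%) toward the high end. With this trend removed from each library, the log2 fold change of *Metrnl* was 0.21 and that of *Fndc5* 0.65. The values of *Ostn*, *Igf1* and *Il15* were then 0.46, 0.47 and 0.29. The correction thus narrowed the gap between the members. It raised their median from 0.20 to 0.46, while that of all tested genes went from 0.010 to -0.0036. Of the 5, 0 were called (adjusted p = 0.464 for *Igf1*, the lowest, by limma). The member with an unadjusted p under 0.05 was then *Igf1* (limma, 0.0494) and not *Metrnl*.

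**Figure D3:**
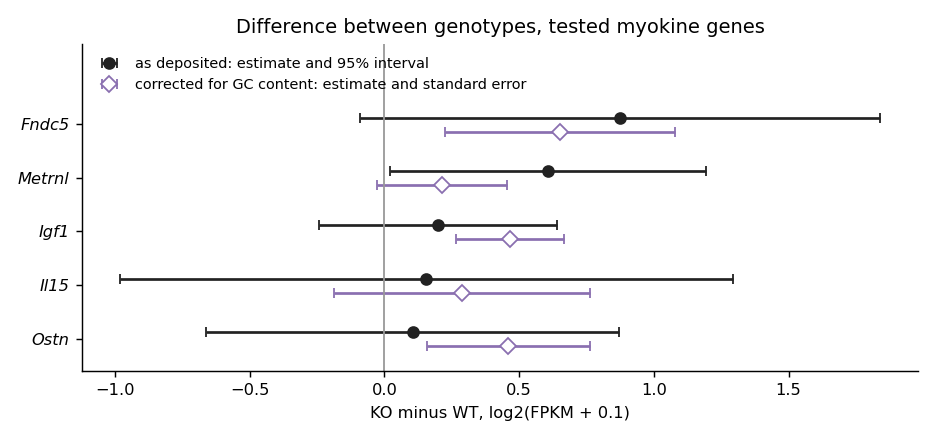
Difference between KO and WT muscle in log2(FPKM + 0.1) (x axis) for the 5 tested members, as deposited (black, 95% interval) and after correction for GC content (purple, standard error). As deposited, the interval of *Metrnl* (0.021 to 1.19) is above 0 and the other 4 cross it, and the correction lowers *Fndc5* and *Metrnl* and raises *Ostn*, *Igf1* and *Il15*.

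*Apln* (ENSMUSG00000037010), on the minus strand of the X chromosome, 48025146 to 48034853, fell below the filter on low values and was the only member that separated the genotypes. *Apln* values were 0.307, 0.244 and 0.341 FPKM for WT against 0.201, 0.172 and 0.166 FPKM for KO muscle. Each KO value was under each WT value (two-sided p = 0.1 by exact permutation, the lowest possible with 3 and 3 libraries). WT muscle averaged 0.297 ± 0.0493 FPKM and KO muscle 0.180 ± 0.0188 FPKM (SD, n = 3 each). The mean log2 difference was -0.50 and stayed between -0.60 and -0.42 when each library was left out in turn. Of the 2891 genes under the filter and above 0 in every library, 5.12% were separate in this direction and 10.1% in the other. With 1 annotated transcript of 3149 bases, these values stood for about 9, 10 and 8 fragments in KO replicates 1, 7 and 8 and about 19, 15 and 22 in WT replicates 1, 7 and 8. The exact Poisson 95% interval, which covers counting error only, was 8.40 to 24.7 fragments in the WT library of lowest FPKM and 4.12 to 17.1 fragments in the KO library of highest FPKM, which was also the shallower library. Apelin in muscle comes from fibers and from endothelial cells. The 6 endothelial markers (*Pecam1*, *Cdh5*, *Kdr*, *Tie1*, *Emcn* and *Egfl7*) summed to 58.6 to 84.8 FPKM in the WT and 72.4 to 83.9 FPKM in the KO libraries, which overlapped, and none was at 0 in every library. Among them *Kdr* was lower (log2 fold change -0.44, adjusted p = 0.185 by limma) and *Tie1* higher in KO muscle (log2 fold change 0.79, adjusted p = 0.0750 by limma), neither of them called, and the part of endothelial cells in *Apln* was not tested. The apelin receptor *Aplnr* was at 2.44, 1.81 and 0.612 FPKM for WT against 1.49, 2.23 and 1.11 FPKM for KO muscle, and its log2 fold change was 0.12 (standard error 0.48, adjusted p = 0.892 by limma).

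*Bdnf* (ENSMUSG00000048482), on the plus strand of chromosome 2, 109674700 to 109727007, had values of 0.0381, 0.0684 and 0.0609 FPKM for WT against 0.0377, 0.145 and 0.105 FPKM for KO muscle. KO replicate 1 was the lowest library and KO replicates 7 and 8 were the highest. The mean log2 difference was 0.30 (exact permutation test, two-sided, p = 0.4) and 0.11 without KO replicate 7. These values stood for about 2.32 to 11.6 fragments on the longest transcript. *Fgf21* (ENSMUSG00000030827), on the minus strand of chromosome 7, 45613886 to 45615490, was listed at 0 in each library. A listed 0 need not be a measured absence here, since *Atp2a1* and *Tnnt3*, which encode the calcium pump and a troponin of fast fibers, are also listed at 0 in all 6 libraries. On the *Fgf21* transcript of 951 bases, 1 fragment would stand for 0.0597 to 0.0843 FPKM.

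The genes through which these factors act were read from the same fit. Of 32 receptors and binding partners listed, 31 were in the table and 23 were tested, and 0 were called (limma), while 5 had an unadjusted p under 0.05, all higher in KO muscle, beside 15.3% of all tested genes. They were *Npr1*, *Igfbp4*, *Igfbp6*, *Fgfr1* and *Fgfr3*, an FGF receptor whose libraries overlapped (log2 fold change 1.08, adjusted p = 0.136 by limma, and 0.61 after correction for GC content). The KO libraries lay above the WT libraries for 5 of the 23 and below them for 0, beside 18.3% and 16.2% of all tested genes. The median log2 fold change of the list was 0.21. The 5 separate genes were *Npr1*, *Igfbp4*, *Igfbp6*, *Fgfr1* and *Igf1r*.

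For *Ostn*, the natriuretic peptide receptors are the known partners, and osteocrin binds the clearance receptor *Npr3*. *Npr3* was at 1.34, 0.452 and 0.425 FPKM for WT against 0.899, 1.86 and 0.751 FPKM for KO muscle (log2 fold change 0.67, standard error 0.49, adjusted p = 0.417 by limma). *Npr1*, the guanylyl cyclase receptor of atrial natriuretic peptide, was at 3.84, 3.85 and 3.12 FPKM for WT against 6.71, 5.70 and 6.21 FPKM for KO muscle. It had the lowest p of the list. Its log2 fold change was 0.77 (standard error 0.14, adjusted p = 0.0667 by limma) and 0.40 after correction for GC content. *Npr2* ranged from 10.7 to 17.1 FPKM and overlapped between the genotypes.

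For *Igf1*, the receptor *Igf1r* was at 0.445, 0.533 and 0.876 FPKM for WT against 0.881, 1.00 and 1.26 FPKM for KO muscle, so that the highest WT and the lowest KO library were nearly equal. Its log2 fold change was 0.71 (standard error 0.31, adjusted p = 0.197 by limma) and 0.75 after correction for GC content. *Igfbp4*, a binding protein that holds IGF away from its receptor, was at 10.7 to 11.9 FPKM for WT against 16.5, 29.8 and 17.2 FPKM for KO muscle (log2 fold change 0.86, adjusted p = 0.0887 by limma). KO replicate 7 was the highest, and the log2 fold change was 0.58 without it and 0.47 after correction for GC content. *Igfbp6* had a difference of 0.94 in log2 (adjusted p = 0.0981 by limma), which was 0.29 after correction for GC content, while *Igfbp5*, the most abundant IGF binding protein of the list, was at 81.7 to 134 FPKM in WT and 77.7 to 112 FPKM in KO muscle.

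For *Fgf21*, the receptor *Fgfr1* was at 17.7, 23.1 and 21.3 FPKM for WT against 25.9, 27.4 and 30.5 FPKM for KO muscle (log2 fold change 0.43, adjusted p = 0.108 by limma, and 0.12 after correction for GC content). A second entry of the table with the symbol *Fgfr1* was listed at 0. The co-receptor *Klb*, which the FGF21 protein needs for binding, did not exceed 0.234 FPKM. For *Il15*, the private receptor chain *Il15ra* was at 9.47 to 11.03 FPKM in WT and 9.95 to 11.5 FPKM in KO muscle, where the log2 fold change was 0.059, and its 95% interval ran from -0.21 to 0.33. The shared chain *Il2rg* ranged from 0.266 to 0.849 FPKM, and the chain *Il2rb* did not exceed 0.0357 FPKM. For *Bdnf*, the receptor *Ntrk2* was at 1.44 to 1.56 FPKM in WT and 1.54 to 2.83 FPKM in KO muscle, with the highest value in KO replicate 7 (log2 fold change 0.31, adjusted p = 0.448 by limma). The low-affinity receptor *Ngfr* did not exceed 0.191 FPKM. For irisin, the integrin chains *Itgav* and *Itgb5* had log2 fold changes of -0.28 and 0.022, with adjusted p = 0.525 and 0.927 by limma. After correction for GC content these were -0.16 and -0.37 (adjusted p = 0.842 and 0.367 by limma). *Kit*, reported as a receptor of meteorin-like, was at 0.306 to 0.677 FPKM, under the filter.

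**Figure D4:**
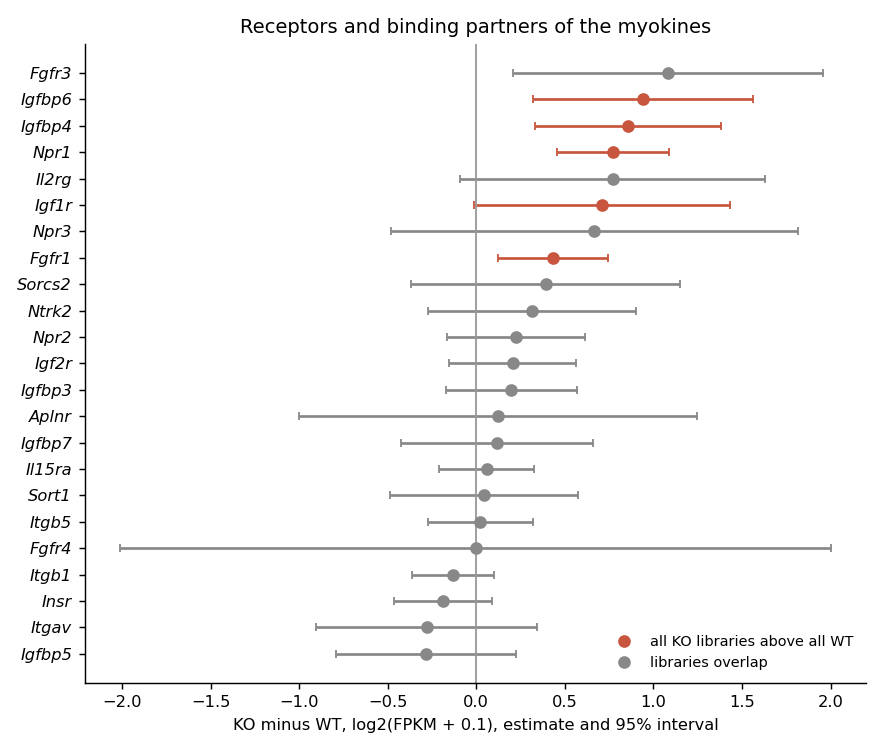
Difference between KO and WT muscle in log2(FPKM + 0.1) with its 95% interval (x axis) for the 23 tested receptors and binding partners. The 5 genes in red, *Igfbp6*, *Igfbp4*, *Npr1*, *Igf1r* and *Fgfr1*, have all KO libraries above all WT libraries, and the 18 in grey overlap.

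Of 13 enzymes that cut or clear such peptides, 9 were tested and 0 were called (limma), with 2 higher and 3 lower in KO muscle at an unadjusted p under 0.05, beside 15.3% and 10.9% of all tested genes. The libraries were separate for 6 of the 9, 3 in each direction, beside 34.5% of all tested genes. *Furin*, the protease that cuts many precursors at paired basic residues, was at 2.98, 4.81 and 4.85 FPKM for WT against 6.38, 6.41 and 6.95 FPKM for KO muscle. Its log2 fold change of 0.66 (adjusted p = 0.105 by limma) was 0.16 after correction for GC content. *Pcsk7*, a related convertase, had a log2 fold change of 0.44 and *Mbtps1*, the site-1 protease, of 0.24, both with separate libraries, and these were 0.11 and 0.17 after correction for GC content. *Mme*, which encodes neprilysin, a protease that clears natriuretic and other peptides, was at 2.13, 2.15 and 2.24 FPKM for WT against 1.19, 1.68 and 1.32 FPKM for KO muscle (log2 fold change -0.62, adjusted p = 0.0991 by limma). The sheddases *Adam10* (log2 fold change -0.33) and *Adam17* (log2 fold change -0.29) were lower in each KO library as well, and the values of *Mme*, *Adam10* and *Adam17* after correction for GC content were -0.27, -0.082 and -0.095.

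Of 20 genes listed as upstream regulators, 19 were tested, and 1, *Esrra*, was called (limma). Whether each of them acts on the myokine genes in this muscle was not tested. *Esrra* was higher in KO muscle, a direction in which 0.251% of all tested genes were called. At an unadjusted p under 0.05, 6 were higher and 2 lower in KO muscle, beside 15.3% and 10.9% of all tested genes. The libraries were separate for 8 of the 19, 6 with KO above and 2 with KO below WT, beside 34.5% of all tested genes. *Esrra* encodes the nuclear receptor ERRα, a partner of PGC-1α in the control of oxidative genes. It was at 6.26, 7.78 and 9.68 FPKM for WT against 17.7, 21.8 and 18.5 FPKM for KO muscle, and the log2 fold change was 1.30 (standard error 0.17, adjusted p = 0.0435 by limma). The call was lost in 13 of 19 other settings, among them the correction for GC content (log2 fold change 0.75, adjusted p = 0.149), and the adjusted p ranged from 0.00353 to 0.415. *Ppargc1a*, the coactivator named for the induction of *Fndc5*, was at 5.72 to 6.63 FPKM in WT and 5.57 to 6.46 FPKM in KO muscle, and the log2 fold change was -0.029 with a 95% interval of -0.31 to 0.25. *Ppargc1b* (log2 fold change 0.75, adjusted p = 0.145 by limma) and *Ppara*, a fatty acid receptor (log2 fold change 1.29, adjusted p = 0.120 by limma), had separate libraries, and after correction for GC content the values were 0.24 and 1.19. *Ddit3* and *Atf5*, factors of the stress response that also induces *Fgf21*, had log2 fold changes of 0.61 (adjusted p = 0.0750) and 0.48 (adjusted p = 0.111), also with separate libraries. For *Ddit3* this was 0.52 and for *Atf5* -0.20 after correction for GC content. *Atf4*, the main inducer of *Fgf21* in that response, was at 114 to 125 FPKM in WT and 101 to 120 FPKM in KO muscle. Its log2 fold change was -0.10, and -0.43 after correction for GC content (adjusted p = 0.298 by limma). *Gadd45a* had a difference of -0.36 in log2 (adjusted p = 0.104 by limma), with each KO library under each WT library, and -0.84 after correction for GC content (adjusted p = 0.114). The list had 9 estimates above 0 and a median of -0.0064.

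Of 42 symbols listed for other factors that muscle secretes, 41 were in the table, 26 were tested and 0 were called (limma). At an unadjusted p under 0.05 there were 5, all higher in KO muscle, beside 15.3% of all tested genes. They were *Metrn*, *Igf2*, *Angptl2*, *Lgals1* and *Vegfa*, the angiogenic growth factor, whose libraries overlapped (log2 fold change 0.45, adjusted p = 0.159 by limma). The libraries were separate for 4 of the 26, all with KO above WT, beside 18.3% of all tested genes. *Metrn*, the paralog of *Metrnl*, was at 2.86, 4.01 and 5.72 FPKM for WT against 8.08, 9.10 and 6.55 FPKM for KO muscle. Its libraries were separate, and the log2 fold change was 0.94 (adjusted p = 0.0916 by limma), larger than the 0.61 of *Metrnl*, and the correction for GC content lowered it to 0.30. The difference between the paralogs was not tested. *Igf2*, the growth factor related to *Igf1*, was at 3.60 to 3.99 FPKM in WT and 4.51 to 4.85 FPKM in KO muscle (log2 fold change 0.31, adjusted p = 0.152 by limma). *Angptl2* and *Lgals1*, a galectin, had log2 fold changes of 0.34 and 0.47, with separate libraries. The log2 fold changes of these last 3 genes after correction for GC content were 0.022, 0.036 and 0.14. *Il6* was at 0 to 0.156 FPKM, under the filter.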

How the data were processed

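TopHat was used by the authors for mapping to GRCm38 and Cufflinks for the deposited FPKM per gene of each of 6 GAS muscle libraries (3 WT and 3 KO mice, 1 library per mouse, TruSeq stranded mRNA kit). Tool versions and the annotation release are not given in the sources used here. Counts were not used. Depth was estimated from 1-transcript genes of 1500 to 6000 bases, whose low values fell within 0.15 of whole fragments for 91.1% to 94.7% of values. At most 1 identical value occurred in any 2 libraries among 14983 genes above 0 throughout.

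limma 3.58.1 (R 4.3.3) with a variance trend was fitted to log2(FPKM + 0.1) for 12334 genes (mean FPKM of 0.5 or more), with Benjamini-Hochberg adjustment over all of them. The code was checked on simulated data with independent noise for each gene. These had no trend with GC content and no difference in depth, so the check does not cover those features of the libraries. Members under the filter had exact permutation tests. Coordinates, transcript lengths and GC content came from GENCODE vM21 (GRCm38), in which 32935 of 37979 identifiers were found, and promoters from RefSeq. For GC content, a loess curve (span 0.3) of each library's deviations from the gene means was subtracted.

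The members and lists were chosen with earlier results of these data known. Named were all members and their direct receptors, called genes of the lists, up to 6 genes per list of lowest p with separate libraries, and the 2 genes most like each tested member. Alternatives covered the pseudocount, filter, scaling, variance model, array weights, replicate block, GC content, genes listed at 0 and each library left out. Figures were drawn with matplotlib 3.10.9. The result of 1 marker list is not reported here.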

Additional observations from a re-analysis of the deposited data

How the results depend on the processing

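Of the 5 tested myokine genes, 0 were called in each of the 19 other settings except array weights, where 1, *Fndc5*, was called. Of the receptors and partners, 7 were called with array weights and 0 otherwise. Over the whole table, 40 genes were called (31 higher, 9 lower), 11 with a pseudocount of 1, 20 without the filter, 18 with quantile normalization (11 higher, 7 lower), 19 without a variance trend, 3147 with array weights, 14 after correction for GC content, 1 without genes listed at 0 in any library, and 11 to 38 with each library left out. The cause was not tested. Correlations of the deviations were -0.0252, -0.0797 and 0.0343 for same-numbered KO and WT libraries (numbers 1, 7 and 8). They were -0.0657 to 0.086 for the other pairs. What the numbers stand for is not given in the sources used here, and these correlations cannot settle whether libraries were paired. With the replicate block 13 genes were called, and 12 with the block and the correction for GC content, with 0 members called under either. The median of the members ranged from 0.17 to 0.61 over the libraries left out. Signs turned for *Igf1* with array weights (-0.051), for *Ostn* with array weights (-0.46) and with libraries left out (-0.20 to 0.46), for *Il15* with libraries left out (-0.28 to 0.61), and for *Atf5* after correction for GC content, with and without the block (-0.20). *Apln* kept its direction in all 8 settings run for it, with -0.14 and -0.69 at pseudocounts of 1 and 0.01. Depth limits *Apln* (about 8 to 22 fragments per library), *Bdnf* (2.32 to 11.6 on its longest transcript) and *Il15* (21.0 to 83.3 on its longest transcript).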
